A study of Mus musculus with 6 samples.

Results

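Small nucleolar RNAs (snoRNAs) were followed in a mouse acute myeloid leukaemia line as its FLT3-ITD oncogene was withdrawn in the animal. The members were all named rows of the count table whose symbol starts with Snord or Snora and a digit, which are 140 of 53733 rows: 99 C/D box rows (Snord) and 41 H/ACA box rows (Snora), with 138 distinct symbols. Of the 140, 78 reached a summed count of 15 over the 6 libraries and were tested (48 C/D and 30 H/ACA), 36 had fewer counts, and 26 had none.

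The line was made from foetal liver cells with 2 retroviral vectors, MSCV-Luc2-IRES-MLL-AF9, which is always on, and TRE-tight-DsRED-IRES-FLT3-ITD, which needs doxycycline for its transcription. The cells were injected into the tail vein of immunodeficient NSG mice, all of which received doxycycline for 96 h. Doxycycline was then withdrawn for 48 h in the OFF group (3 mice) and continued for the same 48 h in the ON group (3 mice). All cells of both groups carried MLL-AF9 and both came from the same line, and viable leukaemic cells were sorted from the bone marrow. The sources used here do not give the age and sex of the mice or the gate of the sort.

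A snoRNA is a short, non-coding RNA of the nucleolus, mostly cut out of an intron of a host gene after splicing, that guides a protein complex to ribosomal RNA by base pairing. C/D box snoRNAs carry the methyltransferase fibrillarin and direct ribose methylation, and H/ACA box snoRNAs carry dyskerin and direct conversion of uridine to pseudouridine. A few, such as U3, U8, U13, U14 and U17, are known for other parts in ribosomal RNA maturation, such as cleavage of the precursor. Growing cells, leukaemic cells among them, make ribosomes at a high rate. The libraries were primed with oligo-dT, so a mature snoRNA, which has no poly(A) tail, is not the intended target of the assay. A row can also hold reads of the host transcript or of a partly processed or tailed precursor, which these counts cannot tell apart.

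The sequences below belong to rows that the results turn on, and are shown so that the class assigned by the symbol can be set against the boxes in the RNA itself. They are GENCODE M21 transcripts (mouse build GRCm38, the same assembly as the mm10 build named for the counts), written in the sense direction with T for U. Capitals mark the C box (TGATGA) and the D box (CTGA within the last 12 bases) of C/D snoRNAs, and the ACA within the last 8 bases of H/ACA snoRNAs. Rows that were higher in OFF come first.
Snord118: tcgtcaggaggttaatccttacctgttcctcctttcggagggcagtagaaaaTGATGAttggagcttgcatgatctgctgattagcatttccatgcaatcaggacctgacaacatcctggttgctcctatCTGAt
Snord104: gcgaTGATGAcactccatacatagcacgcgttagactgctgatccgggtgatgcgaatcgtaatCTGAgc
Snord89: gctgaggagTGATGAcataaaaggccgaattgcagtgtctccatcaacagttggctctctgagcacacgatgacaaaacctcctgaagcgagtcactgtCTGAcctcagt
Snora57: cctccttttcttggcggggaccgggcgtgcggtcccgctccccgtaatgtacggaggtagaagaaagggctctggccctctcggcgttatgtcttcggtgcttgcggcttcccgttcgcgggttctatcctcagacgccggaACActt
Rows that were lower in OFF come next, and Snora81, the row with the most counts, stands last.
Snora26: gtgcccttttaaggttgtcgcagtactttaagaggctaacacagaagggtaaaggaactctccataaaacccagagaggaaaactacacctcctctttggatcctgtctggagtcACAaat
Snora20: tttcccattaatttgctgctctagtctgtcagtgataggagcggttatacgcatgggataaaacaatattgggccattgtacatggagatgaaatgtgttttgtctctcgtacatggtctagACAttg
Snora9: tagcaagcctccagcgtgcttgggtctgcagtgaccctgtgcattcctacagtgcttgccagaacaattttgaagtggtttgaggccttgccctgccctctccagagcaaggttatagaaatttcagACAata
Snora73b: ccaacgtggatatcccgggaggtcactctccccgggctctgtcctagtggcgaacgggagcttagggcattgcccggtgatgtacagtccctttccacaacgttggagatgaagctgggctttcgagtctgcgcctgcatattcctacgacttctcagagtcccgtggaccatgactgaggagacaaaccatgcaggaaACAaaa
Snora75: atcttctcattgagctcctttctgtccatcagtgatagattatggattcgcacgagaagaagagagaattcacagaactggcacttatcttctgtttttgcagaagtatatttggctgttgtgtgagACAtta
Snord14e: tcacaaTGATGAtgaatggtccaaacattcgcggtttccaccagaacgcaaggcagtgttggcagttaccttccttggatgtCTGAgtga
Snord83b: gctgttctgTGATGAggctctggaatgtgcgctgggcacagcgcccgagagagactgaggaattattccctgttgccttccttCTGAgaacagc
Snora81: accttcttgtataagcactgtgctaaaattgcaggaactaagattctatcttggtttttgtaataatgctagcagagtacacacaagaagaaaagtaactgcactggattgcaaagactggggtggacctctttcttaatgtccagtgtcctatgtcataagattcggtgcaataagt

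Both C/D boxes were found in 68 of the 99 C/D rows (68.7%) and in 0 of the 41 H/ACA rows, against 334 of all 1507 snoRNA transcripts of the annotation (22.2%). The terminal ACA was found in 39 of the 41 H/ACA rows (95.1%) and in 7 of the 99 C/D rows (7.07%), against 706 of all 1507 (46.8%). The searches used the sense strand alone and exact letters, so a degenerate box was missed, and the C and D boxes do not overlap each other. A match is a description and not a measured site. The names and the boxes thus pointed the same way in most rows. Among the tested H/ACA rows, Snora81 and Snora44 had no terminal ACA within this window. Both boxes were present in 4 of the 4 C/D rows that were higher in OFF, in 16 of the 21 that were lower and in 15 of the 23 that were not called. The median length was 84 bases for C/D rows and 132 bases for H/ACA rows.

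The libraries held 8335234 to 9316361 counts in named rows, and levels are given as CPM, counts normalised by library size. A count of 0 allows a level of up to 3 counts, or 0.374 CPM in the shallowest library. OFF replicate 3 stood apart: its counts differed from those of the other OFF libraries with chi-square values of 25 and 35.2 per degree of freedom, against 6.28 between OFF replicates 1 and 2 and 2.8 to 8.41 among ON libraries. Rows of the ribosomal RNA locus took 18%, 17.2% and 10.1% of counts in OFF and 12.1%, 11.3% and 16.2% in ON. The mouse Flt3 row had 5.39, 5.84 and 9.12 CPM in OFF and 5.50, 5.81 and 5.73 CPM in ON; it lies at the endogenous gene and does not check the transgene. Myeloid identity genes of the line (Mpo, Elane, Prtn3, Ctsg, Ms4a3, Cebpa and Spi1) summed to 3730 to 3940 CPM in OFF and 2150 to 2560 CPM in ON. Of these 7, Mpo, Elane and Prtn3 were higher in OFF and Ctsg was lower (log2 -0.41). Ms4a3, Cebpa and Spi1 were not called. Among markers of other marrow cells, 6 of 7 tested erythroid genes of 9 named were higher in OFF. Of all tested rows, 14% were higher and 15% lower. Erythroid sums were 572 to 924 CPM in OFF and 151 to 213 CPM in ON. The erythroid regulator Klf1 was not called. Of megakaryocyte markers 1 of 3 tested was higher (Gp1bb), with sums of 54.3 to 63.7 CPM in OFF and 32.4 to 37.3 CPM in ON. Endothelial sums were 7.05 to 10.3 CPM in OFF and 5.23 to 9.23 CPM in ON, with Tek and Emcn at 0. Stromal sums were 0.882 to 2.2 CPM in OFF and 1.25 to 2.98 CPM in ON, with Lepr at 0, and 1 of 3 tested was lower (Col1a1). Of 7 lymphoid markers named, 2 were tested (Cd3d and Nkg7) and neither was called (log2 0.61 and 0.29). The part of these cells and of the ribosomal RNA share in the results below was not tested. In bulk samples, fewer cells of a type and less RNA per cell cannot be told apart.

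Of the 78 tested snoRNA rows, 39 were lower and 5 were higher after FLT3-ITD withdrawal, and lower rows outnumbered higher ones in both classes. Of the 48 tested C/D rows, 21 were lower in OFF (43.8%), 4 were higher (8.33%) and 23 were not called. Of the 30 tested H/ACA rows, 18 were lower (60%), 1 was higher (3.33%) and 11 were not called. These numbers count 2 overlapping rows of Snord80, both lower (44 and 43 counts), and 2 of Snora16a, neither called (38 counts each). Each pair may hold the same reads. Calls are from edgeR's quasi-likelihood test over 17038 rows with Benjamini-Hochberg adjustment at 0.05, and fold changes are log2 of OFF over ON. Over all tested rows 28.9% were called, 15% lower and 14% higher. The median log2 fold change was -1.27 for C/D rows (range -3.25 to 1) and -1.7 for H/ACA rows (range -4.68 to 0.85), against 0.01 over all tested rows. The low ends belong to Snord35b and Snora41, with 2 and 1 counts in OFF; for Snord35b the ratio of OFF to ON counts was 0.0891 with an exact 95% counting interval of 0.0101 to 0.365. All OFF values lay below all ON values in 25 C/D rows and 18 H/ACA rows, and above them in 5 and 1; over all tested rows the shares were 22.5% and 20.7%, or 43.2% without overlap in either direction. The difference between the classes was not tested, since rows of a class share host genes and libraries and are not replicates. The count of C/D rows called lower rested in part on OFF replicate 2, without which it was 13. With rows that overlap a host exon left out, 6 of 26 C/D rows were lower and 4 higher.

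**Figure D1:**
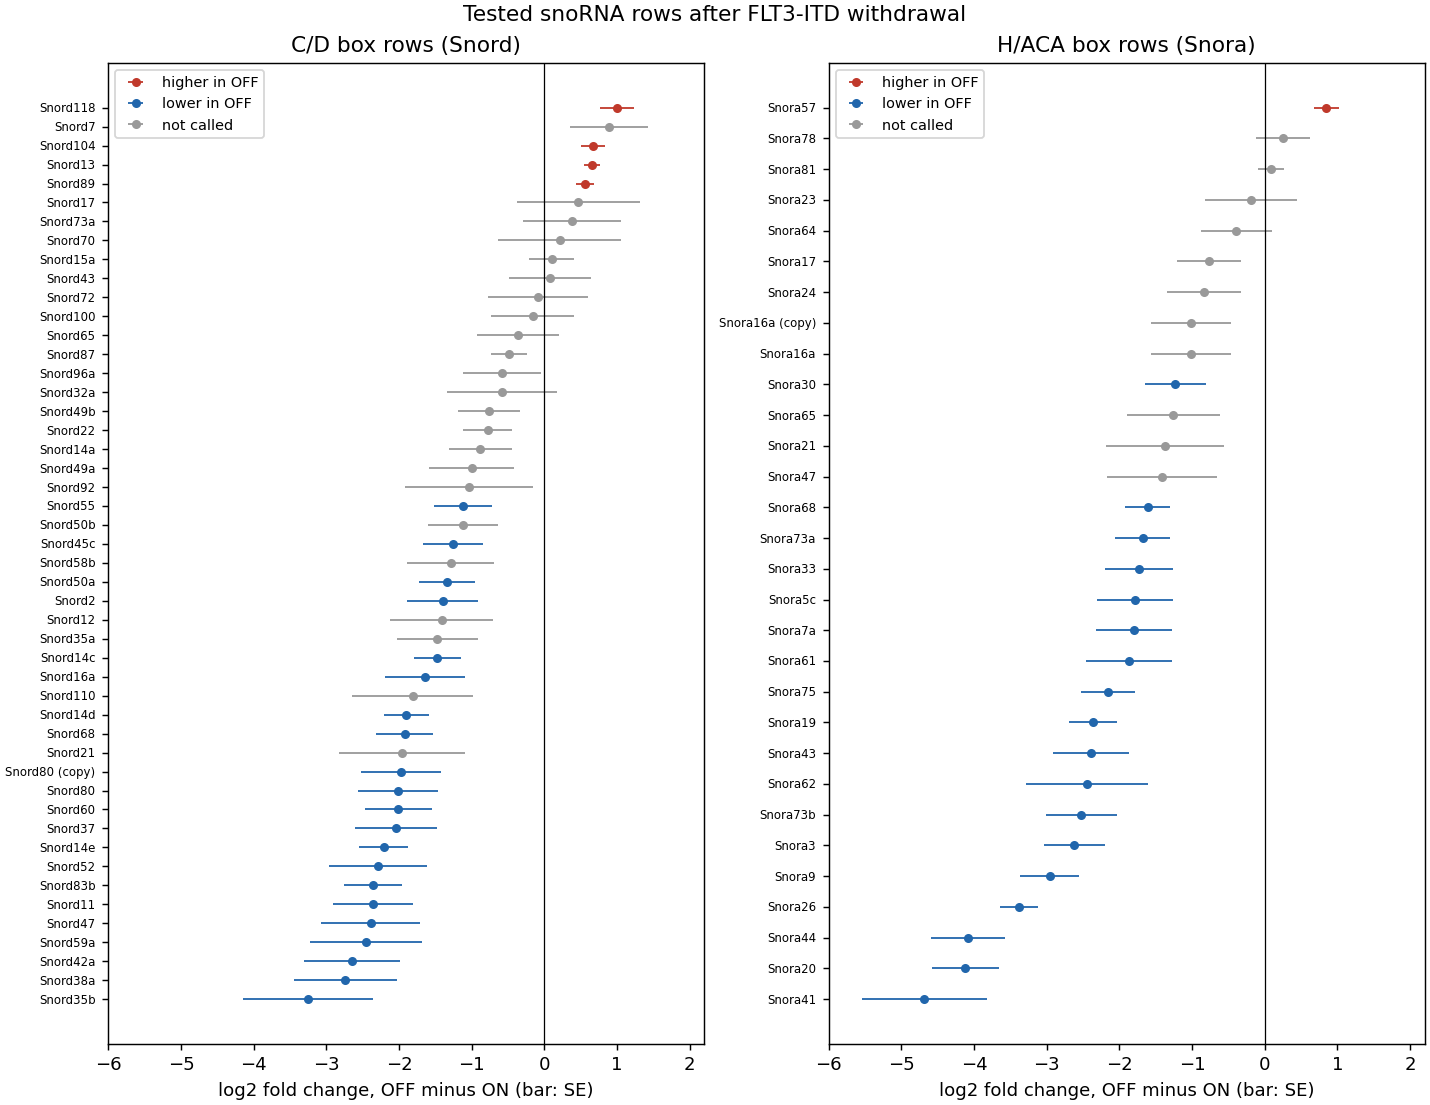
Log2 fold change (OFF minus ON, horizontal axis) of each tested snoRNA row, C/D box rows on the left (48) and H/ACA box rows on the right (30), with bars for the SE. Red rows were called higher in OFF, blue rows lower and grey rows were not called; 21 C/D rows and 18 H/ACA rows are blue, and 4 and 1 are red.

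The count filter bears on these shares, since a row that is high in ON and near 0 in OFF can pass through ON alone. All 39 rows called lower had at least 15 counts in ON libraries together, and 19 of them had at least 15 in OFF libraries together. In the 36 rows with counts below the filter, OFF libraries held 72 counts and ON libraries 166, with OFF below ON in 25 rows, above it in 8 and equal in 3. The same split over all rows of the table under the filter is not given here. The part of the filter in the shares called lower was not tested. At the filter itself stood Snord17, Snord21 and Snord92 with a summed count of 15, none of them called, and just under it Snora70 and Snord66 with 14. The number of C/D rows with any count was 60, 51 and 56 in OFF and 66, 66 and 63 in ON. The number of H/ACA rows with any count was 36, 35 and 29 in OFF and 39, 37 and 38 in ON. The 26 rows without a count were Snora35 and 25 C/D rows, among them Snord64, Snord107 and 17 numbered rows of the Snord116l family. Snord64, Snord107 and Snord116 RNAs are made from an imprinted locus active in brain, and the Snord116l rows are near-identical copies, for which the sources used here do not give the handling of multiply mapped reads. 

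The median fold change was negative on both sides of a cut at 100 summed counts, but not in the most counted rows. Of the 8 rows with most counts (490 to 9875), 5 were higher in OFF, 1 was lower and 2 were not called. Their median log2 fold change was 0.6. The remaining 70 tested rows had 0 higher, 38 lower and 32 not called, with a median of -1.47. Of 25 rows with at least 100 summed counts, 5 were higher in OFF, 14 were lower and 6 were not called, with a median log2 fold change of -1.23. Of 53 rows with 15 to 99 counts, 0 were higher, 25 were lower and 28 were not called, with a median of -1.41. Among all tested rows of the table, at any count, 14% were higher and 15% lower. The 5 rows that were higher in OFF each had at least 490 summed counts. Only 3 rows, Snora81, Snord89 and Snord13, held 19486 of the 28736 snoRNA counts (67.8%). Per base of annotated length these had 55.5, 47 and 42.7 summed counts, against 11.7 for Snord104, 6.73 for Snora57 and 3.63 for Snord118.

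Those rows dominated the summed level of each class. C/D rows summed to 291, 290 and 284 CPM in OFF and 273, 229 and 244 CPM in ON. Without Snord89 the sums were 176, 174 and 167 CPM in OFF and 184, 168 and 158 CPM in ON, so the groups overlapped. Without Snord13 as well, they were 74.8, 68.4 and 67.1 CPM in OFF and 111, 107 and 97.5 CPM in ON. Every OFF library was then below every ON library. H/ACA rows summed to 317, 245 and 172 CPM in OFF and 319, 313 and 289 CPM in ON, with OFF replicate 3 lowest. Without Snora81 they summed to 67.9, 50.4 and 37.4 CPM in OFF and 145, 138 and 95.1 CPM in ON, and every OFF library was below every ON library. Over both classes without the 3 most counted rows, the sums were 143, 119 and 105 CPM in OFF and 255, 245 and 193 CPM in ON. These sums are descriptions and carry no test.

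The rows that were higher in OFF were 4 C/D rows and 1 H/ACA row, and 4 of the 5 lie outside any annotated host gene. The erythroid marker sum was higher in OFF as well (572 to 924 CPM in OFF and 151 to 213 CPM in ON), and its part in these rows was not tested. Snord13 (U13), which in human cells pairs with the small-subunit ribosomal RNA and is needed for its acetylation, had 101, 105 and 99.5 CPM in OFF and 73.2, 60.8 and 60.3 CPM in ON. Every OFF library was above every ON library, and the row was 1.57-fold higher in OFF (log2 0.65, SE 0.11; adjusted p = 0.000331, edgeR's quasi-likelihood test). Tti2, on the opposite strand, was the nearest gene in a search that left out names starting with Snor, Mir, Gm or n-R5. Tti2 was lower in OFF (log2 -0.91, adjusted p = 6.83e-05, edgeR). Snord118 (U8; chr11:69073427-69073561, plus strand), needed in frog oocytes for maturation of the large-subunit ribosomal RNAs, had 10.2, 10 and 16.5 CPM in OFF and 4.24, 6.73 and 7.48 CPM in ON. The groups did not overlap, OFF replicate 3 was the highest library, and the row was 2-fold higher in OFF (log2 1, SE 0.24; adjusted p = 0.00519, edgeR). It starts 134 bases past the end of Tmem107 on the same strand, and Tmem107 had a log2 fold change of -0.92 (adjusted p = 0.0678, edgeR), which did not pass.

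Snord104 (chr11:106500993-106501062, plus strand) is a C/D methylation guide with no annotated host. It had 15.4, 22.1 and 19.1 CPM in OFF and 12.6, 11.5 and 11.3 CPM in ON. Each OFF library was above each ON library, with a 1.6-fold higher level in OFF (log2 0.67, SE 0.16; adjusted p = 0.00387, edgeR). Snord89 (chr1:39548745-39548854, minus strand) was the row in this group with a host, lying in an intron of the non-coding gene Gm15832. It had 115, 117 and 117 CPM in OFF and 89.4, 60.8 and 86.1 CPM in ON, was 1.48-fold higher in OFF (log2 0.56, SE 0.13; adjusted p = 0.00386, edgeR), and its OFF libraries differed little from each other. Gm15832 itself had 44.2, 44.4 and 57.7 CPM in OFF and 45.6, 49 and 50.7 CPM in ON and was not called (log2 0.01). Snora57 (chr19:8888538-8888685, minus strand), a pseudouridylation guide, had 25.5, 26.9 and 19.7 CPM in OFF and 17, 12.2 and 10.7 CPM in ON. The groups did not overlap and the row was 1.8-fold higher in OFF (log2 0.85, SE 0.17; adjusted p = 0.0014, edgeR). It lies antisense to Lbhd1, which averaged 43.8 CPM in OFF and 54.9 CPM in ON and was lower in OFF (log2 -0.33, adjusted p = 0.0474, edgeR). The strand setting of the counting is not given in the sources used here, so reads of Snora57 and Lbhd1 cannot be told apart. All 5 calls held in each of the 14 alternative settings of filter, scaling, tool, block and left-out library.

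**Figure D2:**
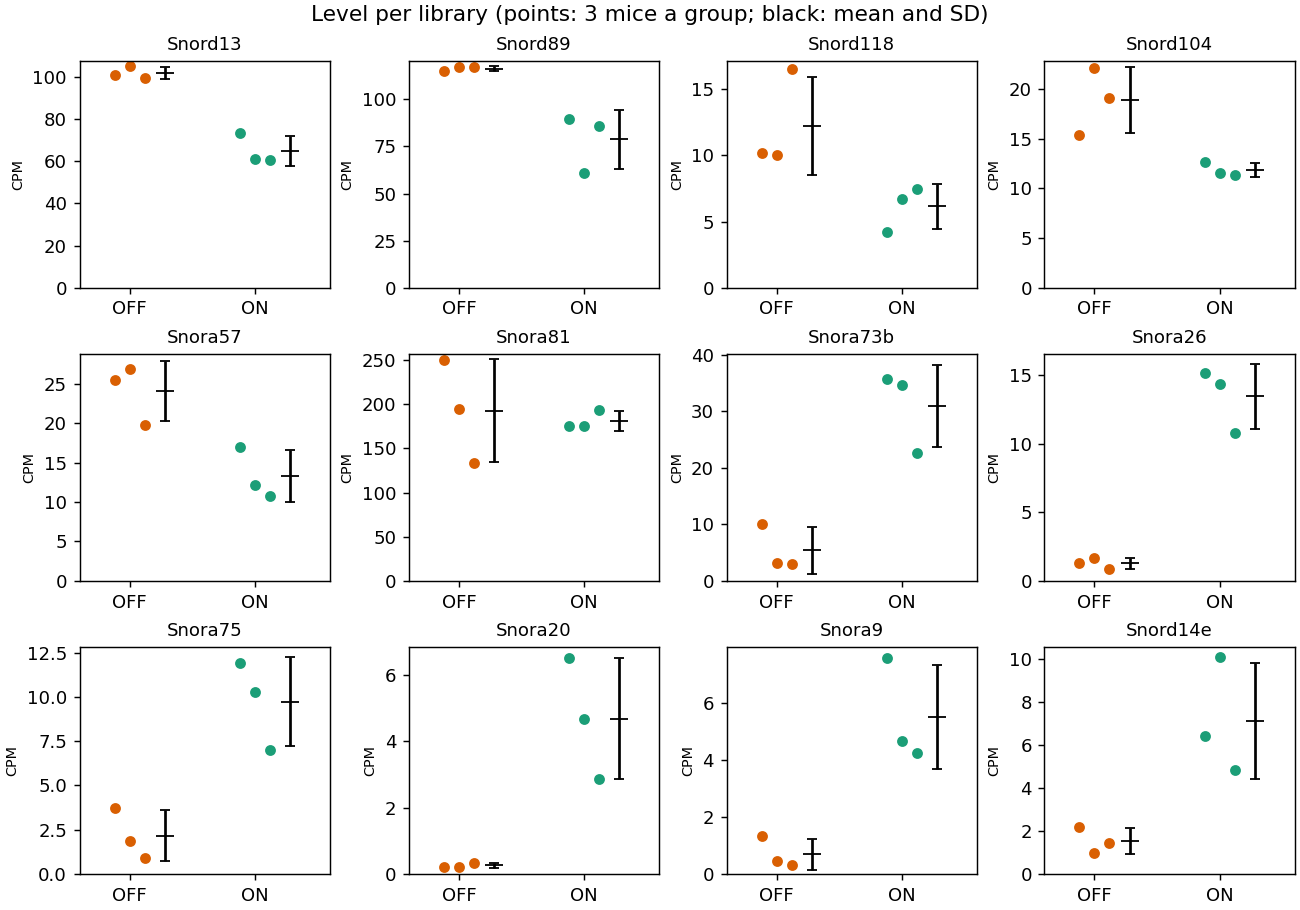
CPM (vertical axis, from 0) of 12 snoRNA rows in the 3 OFF and 3 ON libraries, 1 point per mouse, with the mean and SD in black. Snord13, Snord89, Snord118, Snord104 and Snora57 are higher in OFF with no overlap, Snora81 overlaps, and the other 6 rows are lower in OFF with no overlap.

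Snora81 (chr16:23110756-23110933, plus strand), an H/ACA row within Eif4a2, was the most counted row and did not pass the test. It had 250, 195 and 134 CPM in OFF and 175, 175 and 194 CPM in ON. The OFF libraries spread to both sides of the ON libraries (log2 0.09, SE 0.18; adjusted p = 0.756, edgeR). Without OFF replicate 3 the row was called higher (log2 0.30, adjusted p = 0.0208, edgeR), and without OFF replicate 1 the fold change was -0.13. Eif4a2, a translation initiation factor, had 316, 260 and 200 CPM in OFF and 264, 268 and 277 CPM in ON (log2 -0.06). Row and host had the same order of OFF libraries. However, Snora81 lies in an exon of some Eif4a2 transcripts, and its summed count was 70.8% of that of Eif4a2. The row and its host may therefore hold the same reads, which these counts cannot tell apart. Snord87, a C/D row in Snhg6, had 10.9, 8.6 and 4.84 CPM in OFF and 13.8, 9.01 and 11.3 CPM in ON (log2 -0.49, adjusted p = 0.166, edgeR) and overlapped. Without OFF replicate 1 it was called lower (log2 -0.75, adjusted p = 0.0192, edgeR). Snord15a, a C/D row in Rps3, had 3.85, 3.64 and 1.98 CPM in OFF and 2.29, 3.31 and 3.24 CPM in ON and was not called (log2 0.10, adjusted p = 0.849, edgeR).

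Of the H/ACA rows that were lower in OFF, Snora73b had the most counts. Snora73 is U17, which is needed in frog oocytes for early cleavage of the small-subunit precursor, and both mouse copies lie in Snhg3. Snora73b (chr4:132352322-132352526, minus strand) had 10.1, 3.09 and 2.97 CPM in OFF and 35.6, 34.7 and 22.6 CPM in ON. All OFF libraries were lower, OFF replicate 1 least so, with a log2 fold change of -2.52 (SE 0.49; adjusted p = 0.0139, edgeR). Without OFF replicate 3 this call was lost (log2 -2.23, adjusted p = 0.0611, edgeR). Snora73a had 0.88, 0.771 and 0.769 CPM in OFF and 3.09, 2.85 and 1.87 CPM in ON, again with no overlap (log2 -1.68, SE 0.38; adjusted p = 0.0031, edgeR). Snhg3 was also lower in OFF (log2 -1.41), as was Rcc1, which overlaps both copies on the same strand (log2 -1.54). Gm17300 on the opposite strand was lower too (22.9 ± 6.74 CPM in OFF and 77.7 ± 5.67 CPM in ON, SD, n = 3 each; log2 -1.76). Reads of these genes cannot be told apart from those of Snora73.

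Other H/ACA rows that were lower in OFF lay in hosts of several kinds. Snora26 (chr5:74093530-74093650, plus strand), in the long non-coding RNA gene Dancr, had 1.32, 1.65 and 0.879 CPM in OFF and 15.2, 14.4 and 10.8 CPM in ON. With no overlap it was 10.4-fold lower in OFF (log2 -3.38, SE 0.26; adjusted p = 1.43e-07, edgeR), the smallest p among snoRNA rows. Dancr had 4.18, 3.09 and 2.31 CPM in OFF and 22.4, 21.1 and 18.1 CPM in ON (log2 -2.68), so both fell. Snora26 lies in an exon of some Dancr transcripts, and its summed count was 62.3% of that of Dancr. Both falls may therefore rest in part on the same reads. Snora20 (chr17:12922790-12922917, plus strand), in an intron of the chaperonin gene Tcp1, had 0.22, 0.22 and 0.33 CPM in OFF and 6.53, 4.67 and 2.87 CPM in ON. Its OFF libraries held 7 counts together, against 121 in ON (log2 -4.12, SE 0.46; adjusted p = 5.27e-06, edgeR). Tcp1 fell by 0.72 on the log2 scale. Snora44, in Snhg12, had 0.22, 0.11 and 0.11 CPM in OFF and 2.41, 2.96 and 2.74 CPM in ON, which is 4 counts against 69 (log2 -4.08, SE 0.51; adjusted p = 1.57e-05, edgeR). The ON libraries were all above the OFF libraries by a wide margin. Snhg12 was lower too (log2 -1.16), and Snora44 lies in an exon of some of its transcripts. Snora41, in Eef1b2, had 1, 0 and 0 counts in OFF and 13, 14 and 6 in ON (adjusted p = 0.00056, edgeR), a ratio of OFF to ON of 0.0284 with an exact 95% counting interval of 0.000697 to 0.169. Eef1b2, a translation elongation factor, was not called (log2 -0.22, adjusted p = 0.0983, edgeR).

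Further H/ACA rows fell in the same way. Snora9 (chr11:6528033-6528165, minus strand), in Snhg15, had 1.32, 0.441 and 0.33 CPM in OFF and 7.57, 4.67 and 4.24 CPM in ON (log2 -2.96, SE 0.41; adjusted p = 4.99e-05, edgeR). It lies in an exon of some Snhg15 transcripts, and its summed count was 22.5% of that of Snhg15. Snhg15 fell too (log2 -2.2), and both falls may rest in part on the same reads. Snora19, in an intron of the initiation factor gene Eif3a, had 1.32, 0.661 and 1.21 CPM in OFF and 5.62, 6.73 and 4.11 CPM in ON (log2 -2.36, SE 0.33; adjusted p = 4.34e-05, edgeR). Eif3a was lower as well (log2 -0.7). Neither Snora9 nor Snora19 overlapped between the groups. Snora75 (chr1:86351169-86351301, minus strand), in the nucleolin gene Ncl, had 3.74, 1.87 and 0.879 CPM in OFF and 11.9, 10.3 and 6.98 CPM in ON (log2 -2.16, SE 0.37; adjusted p = 0.000767, edgeR). Ncl, which encodes a major nucleolar protein, was lower in OFF too (log2 -1.45). Snora3, in the ribosomal protein gene Rpl27a, had 0.33, 0.661 and 0.44 CPM in OFF and 2.52, 3.65 and 2.87 CPM in ON (log2 -2.62, SE 0.42; adjusted p = 0.000148, edgeR), while Rpl27a was not called (log2 -0.18). Snora68 had 2.53, 1.65 and 1.1 CPM in OFF and 5.73, 6.04 and 4.36 CPM in ON (log2 -1.61, SE 0.31; adjusted p = 0.00075, edgeR). The groups of each of these rows stood apart.

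Among C/D rows the lowest p-values belonged to 2 members of the U14 family and to Snord83b. U14 is a methylation guide that in yeast is also needed for cleavage of the small-subunit precursor. Its copies Snord14c, Snord14d and Snord14e lie in Hspa8, which encodes a constitutive heat shock protein, and Snord14a lies in Rps13. Snord14e (chr9:40804748-40804837, plus strand) had 2.2, 0.992 and 1.43 CPM in OFF and 6.42, 10.1 and 4.86 CPM in ON (log2 -2.21, SE 0.34; adjusted p = 0.000108, edgeR). Snord14d had 1.32, 1.1 and 1.1 CPM in OFF and 5.04, 3.53 and 4.74 CPM in ON (log2 -1.9, SE 0.31; adjusted p = 0.00019, edgeR). Snord14c had 1.54, 1.87 and 1.1 CPM in OFF and 5.16, 4.22 and 3.12 CPM in ON (log2 -1.47, adjusted p = 0.00217, edgeR). In all 3 Hspa8 copies the groups did not overlap, and Hspa8 fell by 0.79. Snord14a had 1.21, 0.882 and 0.989 CPM in OFF and 2.41, 2.39 and 0.872 CPM in ON, overlapped through ON replicate 3, and was not called (log2 -0.88, adjusted p = 0.14, edgeR). Snord83b (chr15:80078498-80078591, minus strand), in an intron of the ribosomal protein gene Rpl3, had 0.66, 1.21 and 0.33 CPM in OFF and 4.7, 3.31 and 3.49 CPM in ON. It was lower in OFF in every library (log2 -2.36, SE 0.4; adjusted p = 0.00026, edgeR), and Rpl3 was not called (log2 -0.15).

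One list holds snoRNAs linked to maturation of the ribosomal RNA precursor beyond methylation or pseudouridylation. Of its 9 tested rows, 2 were higher in OFF (Snord13 and Snord118), 5 were lower (Snora73a, Snora73b and the 3 copies in Hspa8) and 2 were not called (Snord14a and Snord22), where 14% of all tested rows were higher and 15% lower. Snord22, U22, had 2.86, 1.65 and 1.32 CPM in OFF and 2.75, 2.85 and 4.49 CPM in ON and overlapped (log2 -0.78, adjusted p = 0.0995, edgeR). Snord14a was called lower without ON replicate 3 (log2 -1.21, adjusted p = 0.0466, edgeR), and Snord22 without OFF replicate 1 (log2 -1.16, adjusted p = 0.02, edgeR). U3, a C/D RNA of precursor cleavage, falls outside the naming rule. Its row Rnu3b1 had 120, 136 and 126 CPM in OFF and 71.9, 71 and 80.1 CPM in ON and was higher in OFF (log2 0.77, SE 0.11; adjusted p = 5.18e-05, edgeR), with an identical second row that may hold the same reads. Rnu3a had 56.1, 49.8 and 40.6 CPM in OFF and 45.5, 43.6 and 42 CPM in ON and was not called (log2 0.16). The snoRNAs of the Rpl13a introns, studied in lipotoxic stress, were too low or not called: Snord32a had a log2 fold change of -0.58 (adjusted p = 0.615, edgeR), Snord35a of -1.47 (adjusted p = 0.0557, edgeR), and Snord33 and Snord34 had 13 and 3 counts. Snord35a was called lower without ON replicate 3 (log2 -1.78, adjusted p = 0.0335, edgeR).

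Sorted by place in the annotation, the rows differed in their share of calls. Of 6 tested rows in no host gene, 4 were higher in OFF, 1 was lower (Snora43) and 1 was not called (Snora17), with a median log2 fold change of 0.66. Of 33 rows wholly within introns, 1 was higher (Snord89), 12 were lower (36.4%) and 20 were not called, with a median of -1.12. Of 37 rows that lie in an exon of some transcripts of the host, 0 were higher, 24 were lower (64.9%) and 13 were not called, with a median of -1.73. The 2 rows partly in an exon (Snora73a and Snora5c) were lower, and the call of Snora5c was lost in 3 settings: DESeq2, without OFF replicate 1 and without ON replicate 2. Against these, 15% of all tested rows were lower and 14% higher. Rows that overlap exons may hold reads of the host messenger; with such rows left out, 6 of 26 C/D rows and 7 of 13 H/ACA rows were called lower. By kind of host, 12 of 25 rows in ribosomal protein genes were lower (median -1.47), 14 of 22 in other protein-coding genes (median -1.62) and 12 of 25 in non-coding genes (median -1.34), with Snord89 the 1 row higher among all 72.

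**Figure D3:**
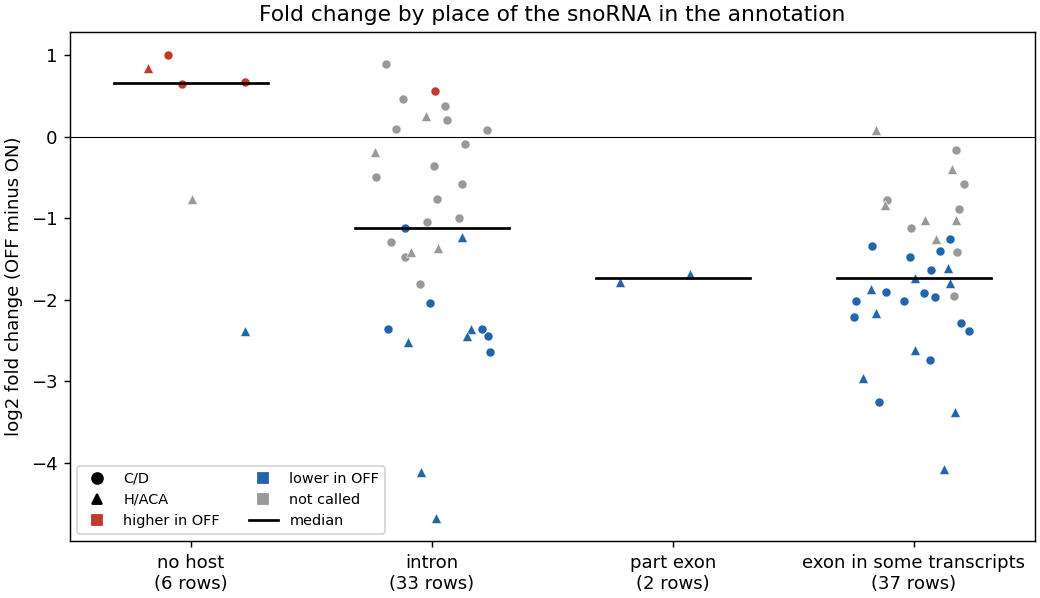
Log2 fold change (OFF minus ON, vertical axis) of the 78 tested snoRNA rows by place in the annotation; circles are C/D and triangles H/ACA rows, colours give the call, and black lines the median. Rows with no host (6, median 0.66) lie mostly above 0, and rows in introns (33, median -1.12) and in exons of some transcripts (37, median -1.73) mostly below.

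The measured fold changes of rows and of their hosts were only loosely correlated. Of the 78 tested rows, 53 had only 15 to 99 counts, and the part of counting error in this was not tested. Over 72 pairs of a tested row and its host (55 hosts), the rank correlation was 0.14 (Spearman) and Pearson's r was 0.22, as a description of rows that share libraries and in part hosts and reads. Of the 55 hosts, 0 were higher in OFF, 25 were lower and 30 were not called, with a median log2 fold change of -0.22, where 15% of all tested rows were lower and 14% higher. The row was below its host in 56 pairs and above it in 16, by a median of -0.8. Rows of 1 host did not always share a call, and differences between rows of 1 host were not tested. Gas5 held 3 rows that were all lower (Snord47 and 2 overlapping rows of Snord80, log2 -2.39 to -1.97), with Gas5 at -0.66. Without OFF replicate 2 the calls of Snord47 and of the second Snord80 row were lost, the first also without ON replicate 1 and the second without ON replicate 3. In Nop58, Snord11 was lower (-2.36) and Snord70 was not called (0.21). In Rpl3, Snord83b was lower and Snord43 was not called (0.08), with 34 counts and an interval of 0.507 to 2.21. In Eif4a2, Snora81 was not called and Snord2 was lower (-1.4), a call lost in 7 of 14 settings, with adjusted p up to 0.151 (edgeR or DESeq2).

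**Figure D4:**
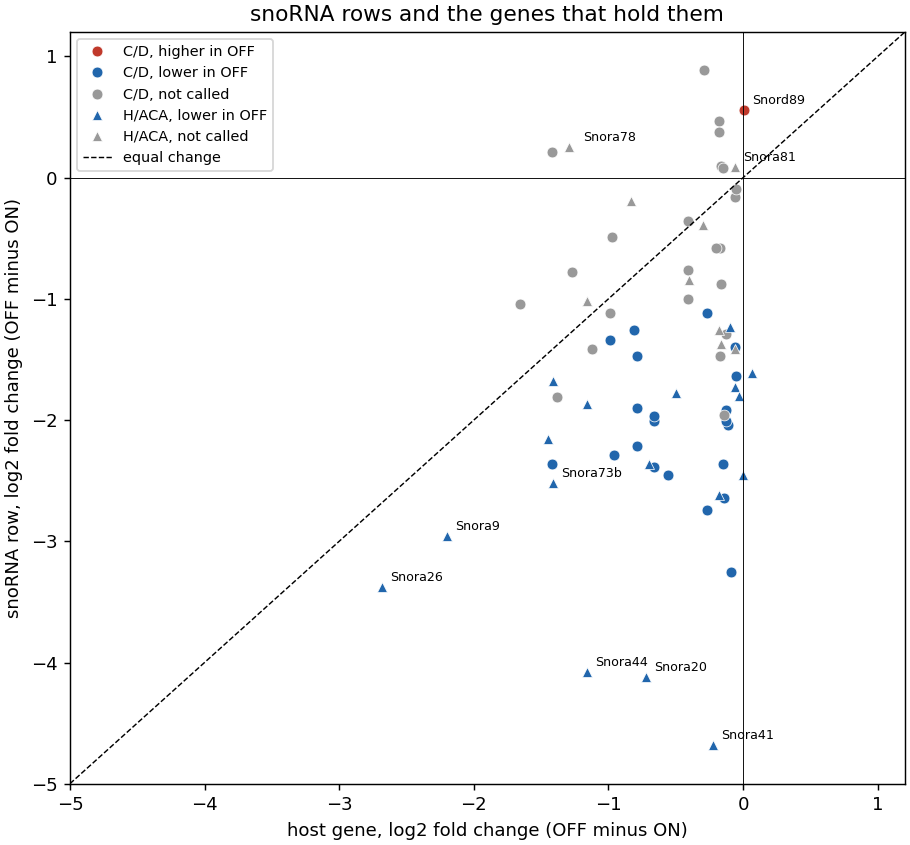
Log2 fold change (OFF minus ON) of 72 tested snoRNA rows (vertical axis) against that of the host gene (horizontal axis), with circles for C/D and triangles for H/ACA rows and colours for the call of the row. The dashed line marks equal change; 56 points lie below it and 16 above.

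Transcripts of the core proteins of both kinds of particle were lower in OFF, and most of those of assembly and maturation factors. All 5 tested C/D core genes fell (median log2 -1.38): Nop56, Nop58, fibrillarin (Fbl), Snu13 and the U3-specific Rrp9. Nop56, a scaffold of the particle, had 143, 102 and 84.4 CPM in OFF and 299, 274 and 284 CPM in ON (log2 -1.38, SE 0.16; adjusted p = 1.75e-05, edgeR), with OFF replicate 3 lowest. Fbl, the methyltransferase, had 96, 75.6 and 70.2 CPM in OFF and 152, 141 and 157 CPM in ON (log2 -0.89, SE 0.12; adjusted p = 4.19e-05, edgeR). No library of 1 group reached the other for either gene. All 4 H/ACA core genes fell (median -1.05). Dkc1, the pseudouridine synthase dyskerin, had 192, 157 and 127 CPM in OFF and 300, 269 and 314 CPM in ON (log2 -0.89, SE 0.13; adjusted p = 9.76e-05, edgeR), and Gar1, Nhp2 and Nop10 had log2 fold changes of -1.29, -1.21 and -0.81. Of 14 assembly and trafficking factors, 11 were lower, 1 was higher and 2 were not called (median -0.86). The nucleolar chaperone Nolc1 had -1.3, the H/ACA assembly factor Naf1 -1.12 and the C/D assembly factor Znhit3 -1.17. Pih1d1, a subunit of the R2TP assembly complex, was higher (log2 0.53, adjusted p = 0.0303, edgeR), a call lost in 4 settings, such as without OFF replicate 3 (adjusted p = 0.135, edgeR). Phax and Tgs1 were not called. Of 12 maturation and decay factors, 8 were lower and 4 were not called (C1d, Dbr1, Parn and Xrn2), with a median of -0.48, and Dis3, a nuclease of the RNA exosome, had -1.06. These shares stand against 15% of all tested rows called lower.

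Other small RNAs without a poly(A) tail gave mixed calls. Of 17 tested rows, which hold duplicates of both U3 genes, 5 were higher in OFF, 2 were lower and 10 were not called, with a median log2 fold change of 0.53; over all tested rows 14% were higher and 15% lower. The 5 count the identical Rnu3b1 rows as 2. Rnu11, the U11 RNA of the minor spliceosome, had 33.5, 47.8 and 50 CPM in OFF and 12.4, 13.3 and 14.7 CPM in ON (log2 1.7, SE 0.16; adjusted p = 7.9e-07, edgeR). Rnu12 of the same spliceosome and Rn7sk, which restrains transcription elongation, were higher by 1.25 and 0.94. In each of these the groups did not overlap. Rpph1, the RNA of ribonuclease P, had 5.5, 4.08 and 4.84 CPM in OFF and 10.2, 9.8 and 8.97 CPM in ON and was lower (log2 -1.01, SE 0.2; adjusted p = 0.000898, edgeR). Scarna9, a guide of Cajal bodies, was lower (log2 -1.18, adjusted p = 0.0248, edgeR), a call lost in 4 settings, with adjusted p up to 0.0931.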

How the data were processed

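RNA of sorted leukaemic cells was made into QuantSeq 3' libraries, per the labels' protocols, 1 per mouse. Per the submitters' processing notes, the tools were HISAT2 2.0.4, featureCounts of Subread 1.6.3, limma 3.42.2 in R 3.6.1, cutadapt 1.9.1, bcl2fastq 2.17.1.14 and FastQC 0.11.6, and the build was mm10. The sources used here do not give the annotation, strand setting or handling of multiply mapped reads. The authors deposited raw counts for 54838 rows, of which 1105 without a name (0.145% to 0.172% of counts) were left out. A second deposited table held log2 values of 12287 genes and was used only as an alternative.

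Groups came from the sample titles. Rows with a summed count of at least 15 were tested in R 4.3.3 with edgeR 4.0.16 (TMM, robust glmQLFit and glmQLFTest, no covariate), with Benjamini-Hochberg adjustment over 17038 rows at 0.05. Log2 fold changes are OFF minus ON, the SE is the fold change divided by the square root of F, and CPM use TMM-scaled library sizes. The code was tested on simulated data. The smallest two-sided p of an exact permutation test with 3 mice in each group is 0.1, and the model's p was used for that reason. Counting intervals and the limit of 3 counts cover counting error only, because PCR copies were not marked by molecular identifiers.

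Host genes, places and sequences came from GENCODE M21 (GRCm38), by symbol, with 140 of 140 rows matched. The host was the shortest gene on the same strand that holds the snoRNA and has at least 15 counts. Replicate numbers do not pair the mice: deviations of same-numbered libraries correlated by 0.01, -0.03 and -0.02. Alternatives were other filters, scalings (RLE, upper quartile), tools (DESeq2 1.42.0, limma-voom 3.58.1), a replicate block, each library left out, and the ribosomal RNA locus left out; leaving out duplicate rows and rows with an antisense gene, and limma on the deposited log2 table, were added after seeing the data. Named were the 10 rows with the smallest p in each direction, the 8 with the highest mean CPM in each class, 3 small lists, rows at the filter, hosts, and members of the protein lists; rows named for a shared host, a place or an antisense gene were chosen after their values were seen. The members and lists were chosen with earlier results of these data known. The mice are taken as separate animals, per the labels' protocols. A few hosts, 1 marker and 1 sequence are not reported here.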

Additional observations from a re-analysis of the deposited data

How the results depend on the processing

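The median log2 fold change stayed negative in the 14 settings of filter, scaling, tool, block, ribosomal RNA locus and left-out library, at -1.4 to -1.11 for C/D rows and -1.86 to -1.43 for H/ACA rows. Called lower were 21 of 48 C/D rows and 18 of 30 H/ACA rows; DESeq2 called 15 and 14. With edgeR's filterByExpr 11 of 21 C/D rows were lower, since fewer rows were tested. With rows that overlap an exon left out, 6 of 26 C/D rows and 7 of 13 H/ACA rows were lower. With antisense rows left out, 0 H/ACA rows were higher, since Snora57 was then not counted. Leaving out 1 library gave 13 to 24 lower and 4 to 4 higher C/D rows, 12 to 17 lower and 1 to 2 higher H/ACA rows, and 1544 (without ON replicate 2) to 2666 higher and 1752 to 2831 lower rows over the whole table; the second higher H/ACA row was Snora81, without OFF replicate 3. With the replicate block, 21 C/D and 17 H/ACA rows were lower and 4 and 1 higher; as the numbers do not pair the mice, it has no further bearing. Without the most abundant row of the class, the mean summed level was 172 CPM in OFF and 170 CPM in ON for C/D rows (288 and 249 CPM with it), and 51.9 CPM in OFF and 126 CPM in ON for H/ACA rows (245 and 307 CPM with it). Without both Snord89 and Snord13, C/D rows summed to 67.1 to 74.8 CPM in OFF and 97.5 to 111 CPM in ON. Leaving out 1 library moved Snora81 between -0.13 and 0.3, with a change of sign without OFF replicate 1, and Snord15a between -0.06 and 0.35, with a change of sign without OFF replicate 1, OFF replicate 2 (-0.01) or ON replicate 1 (-0.04); neither was called in the full set, and the cause was not tested. In limma on the authors' deposited log2 table, which holds 26 of the rows, 5 were higher and 14 lower, and 26 of 26 had the same call. Of rows with 15 to 99 counts 25 of 53 were called, and of rows with at least 100 counts 19 of 25. Among all tested rows of the table, at any count, 28.9% were called.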
